A study of Homo sapiens with 18 samples.

Results

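MYC and the genes with which a cell builds its ribosomes were followed in SKOV-3 cells, an established human ovarian carcinoma line, before and after incubation with luteinizing hormone (LH). The set holds 44 genes listed by name for their function, and it was chosen with earlier results of these data known. Of these, 37 had a probe set that the array annotation assigns to that gene alone, and they were tested among the 19775 genes represented in the same way. Where a gene had several such probe sets, the one with the highest mean log2 intensity over all arrays stood for it. NOP56, DKC1, BOP1 and PPAN, whose probe sets list further genes beside them, and GNL3, DDX18 and EBNA1BP2, for which the annotation used lists no probe set, were not analysed here.

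A ribosome is assembled mainly in the nucleolus, where RNA polymerase I copies the ribosomal DNA into a long precursor. Small nucleolar ribonucleoproteins (snoRNPs) then modify that precursor, a large processome cuts out the RNA of the small subunit, and further factors assemble and export both subunits. MYC is a transcription factor that binds the E-box CACGTG with its partner MAX, and many genes of ribosome production are known as its targets in dividing and cancer cells.

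The data are probe set intensities from Affymetrix human genome U133 Plus2 arrays, 18 arrays in 6 groups of 3. The groups were LHR+ cells, which are SKOV-3 cells stably transfected with the LH receptor and kept without LH, the same LHR+ cells incubated with LH at 50 ng/ml for 1, 4, 8 and 20 h (LH1, LH4, LH8 and LH20), and LHR- cells without the receptor and without LH. The sources call the LHR- cells both the parent line and mock-transfected. The study counts the 3 arrays of a group as independent replicates, how many transfected clones the LHR+ cells represent is not given in the sources used here, and LHR- cells with LH were not part of the design. A single group of LHR+ cells without LH serves all 4 LH times, so the effect of LH and that of time in culture cannot be told apart, and the comparisons with LHR+ cells share the same 3 reference arrays.

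Array medians lay between 46.9 and 57.9, and the correlation of log2 intensities between any pair of arrays was between 0.9539 and 0.9751, with 14 of 18 arrays nearest to an array of their own group. The single probe set of LHCGR, the gene of the LH receptor, read 0.196 to 4.11 on all 18 arrays, LHR+ and LHR- alike. The position of this probe set relative to the transfected sequence was not checked, and it gives no check of the LHR labels. KRT8, KRT18, KRT19, ERBB2, CDH2 and VIM, known in this line, were bright on every array, and EPCAM read 41.6 to 251. Of the markers of other cell types, PTPRC of leukocytes and CDH5 of endothelium read 28.5 or less on every array, and CD3E, CD14, PECAM1, VWF and CD34 27.4 or less, whereas ACTA2 reached 93.5, DCN 195 and PDGFRB 257.

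MYC was the 1 member up-regulated at LH1. Its probe set read 795, 777 and 753 in LHR+ cells, 2443, 2258 and 2913 at LH1, 885, 839.9 and 1070.1 at LH4, 523, 630.4 and 662 at LH8, and 485, 416 and 480.0 at LH20, against 570.5, 739 and 734 in LHR- cells. Every LH1 array was thus above every array of the other 5 groups, and every LH20 array was below all of those from LHR+ cells. At LH1 the level was 3.25-fold that of LHR+ cells, a log2 difference of 1.70 (SE 0.14, limma adjusted p = 1.17e-05). At LH4 it had returned to a difference from LHR+ cells of 0.26 on the log2 scale (adjusted p = 0.337 in limma) and was 1.44 lower than at LH1 (adjusted p = 1.97e-05). The difference from LHR+ cells was -0.36 at LH8 (limma adjusted p = 0.141) and -0.75 at LH20 (adjusted p = 0.000836). Values here are probe set intensities, which measure the amount of MYC RNA relative to the rest of the RNA and say nothing of the protein.

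**Figure D1:**
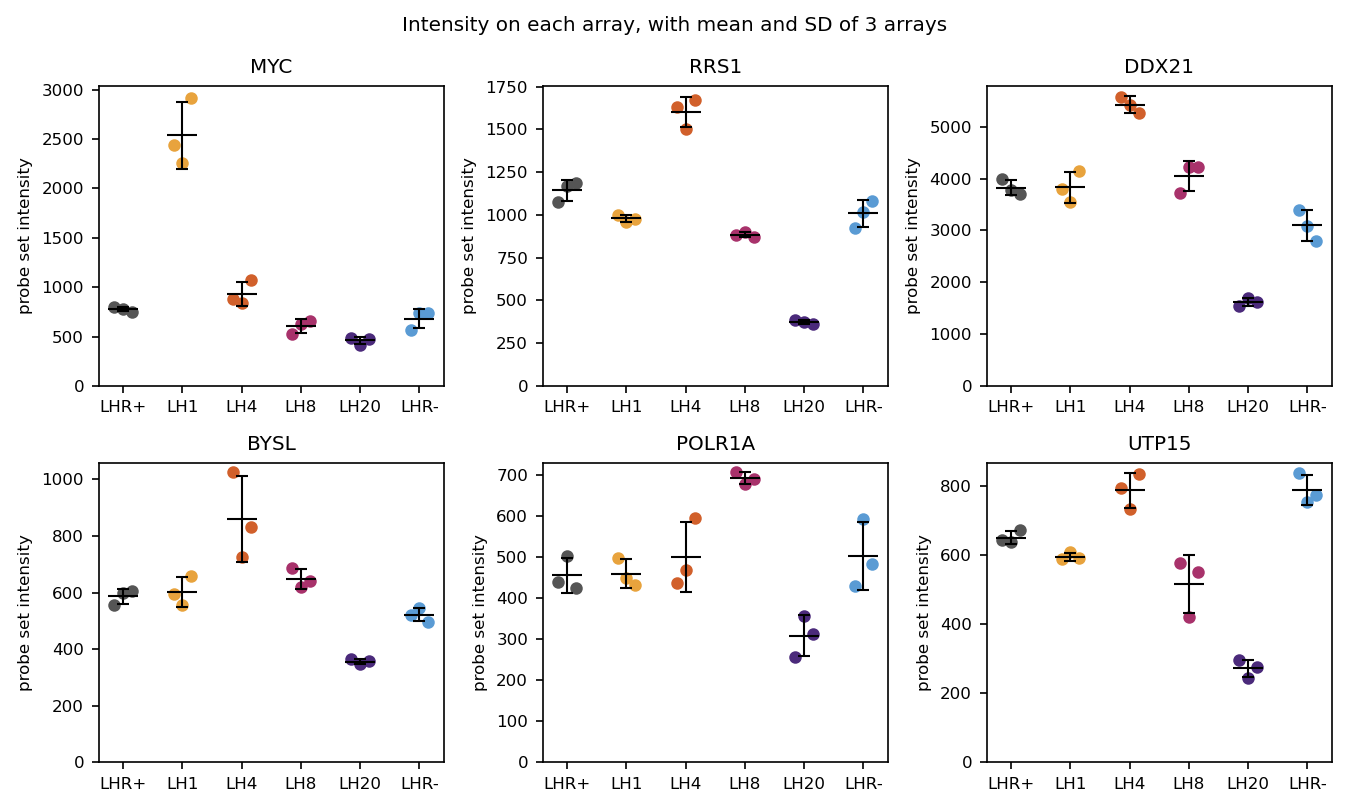
Intensity of 6 members on each array (points) with the group mean and SD (n = 3 arrays), 1 panel per gene with its own linear axis, groups ordered LHR+, LH1, LH4, LH8, LH20 and LHR-. MYC is highest at LH1 (2258 to 2913), RRS1 and DDX21 at LH4 and POLR1A at LH8, and the LH20 arrays of all 6 genes lie below their LHR+ arrays.

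With the receptor alone, the share of members that were higher was close to that of all genes, and it is no result about the members. Comparing LHR+ with LHR- cells, 4 of 37 members (10.8%) passed at a Benjamini-Hochberg adjusted p under 0.1, all of them higher in LHR+ cells, against 10.4% of all genes higher and 8.22% lower. None passed the fuller rule of the study's methods, which adds an unadjusted p under 0.05, at least a 2-fold difference and triplicates that do not overlap, and which 4.63% of all genes passed. IPO4, an importin that carries histones and ribosomal proteins into the nucleus, read 864, 825 and 769.8 in LHR+ cells, against 589, 569 and 604 in LHR- cells. Its log2 difference was 0.48 (SE 0.12, limma adjusted p = 0.0181). MRTO4, a large-subunit factor related to the ribosomal stalk protein P0, read 603, 666 and 688 in LHR+ cells, against 496, 519 and 467 in LHR- cells, a difference of 0.40 (limma adjusted p = 0.0850), and this call was lost when any 1 of these 6 arrays was left out and after median centring or quantile normalization. WDR12, which with PES1 and BOP1 forms the complex needed for maturation of the large-subunit RNA, read 1382, 1355 and 1409.6 in LHR+ cells, against 1117, 1241 and 972 in LHR- cells (0.32, limma adjusted p = 0.0384). The RNA helicase gene DDX21 read 3989, 3777 and 3708 in LHR+ cells, against 3394, 3094 and 2806 in LHR- cells (0.31, limma adjusted p = 0.0286). With only the 2 groups in the fit neither WDR12 nor DDX21 passed (limma adjusted p = 0.210 and 0.191), and with the mean of all its probe sets WDR12 was at -0.0102 (adjusted p = 0.969 in limma). For all 4 genes the arrays of the groups did not overlap, as was so for 13 members (35.1%) and for 29.9% of all genes. The median log2 difference of the members was 0.06, with 2 members passing when array 3 of either group was left out and 1 when arrays were centred on their medians. What transfection and selection did beside adding the receptor cannot be told apart from the receptor here. Of the markers, PDGFRB was higher (1.04) and DCN (-2.25), EPCAM (-1.51) and CDH2 (-0.23) were lower in LHR+ cells, and their part in the result was not tested.

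At LH1 MYC stood alone. It was the 1 member of 37 that rose, none fell, and 0.561% of all genes rose and 0.303% fell. MYC also passed the fuller rule, as did 0.324% of all genes. Among the other members, log2 differences from LHR+ cells lay between -0.22 and 0.16 and none passed in limma, although 4 of these 36 had an unadjusted p under 0.05. RRS1, a factor that brings the small RNA of the large subunit into the precursor in yeast and human cells, read 1002, 961 and 975 at LH1, against 1075, 1171 and 1185 in LHR+ cells. Its groups did not overlap, and its adjusted p was 0.373 in limma. For MYBBP1A, a nucleolar protein bound to the RNA polymerase I machinery, the difference was 0.13 (adjusted p = 0.971).

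At LH4 members of several steps of the pathway were up-regulated by less than 2-fold. Of 37 members, 6 rose (16.2%) and none fell at an adjusted p under 0.1, against 4.9% of all genes higher and 5.97% lower. Among the 9394 genes whose probe sets were at least as bright as that of the dimmest member, 7.64% were higher and 9.68% lower. Of the 37 differences, 29 were above 0. None of the members passed the fuller rule, which 2.23% of all genes passed. The median log2 difference was 0.16 over the members and -0.01 over all genes. Among members grouped with the RNA polymerases, POLR1C, POLR3G and MYBBP1A rose. POLR1C is a subunit shared by RNA polymerases I and III, POLR3G is one of RNA polymerase III, and MYBBP1A is no subunit. POLR3G read 561, 516 and 627 at LH4, against 444, 411 and 389 in LHR+ cells, a log2 difference of 0.45 (SE 0.12, limma adjusted p = 0.0414). MYBBP1A read 1096, 961 and 879 at LH4, against 761, 719 and 599 in LHR+ cells, and POLR1C averaged 3817 ± 165 at LH4 and 3018 ± 87.1 in LHR+ cells (SD, n = 3 arrays each). Every LH4 array of these 3 genes was above their LHR+ arrays. MYBBP1A no longer passed without LHR+ array 3 (limma adjusted p = 0.160) or LH4 array 1 (adjusted p = 0.142), nor did POLR3G without LHR+ array 2, LHR+ array 3 or LH4 array 3 (limma adjusted p = 0.111, 0.143 and 0.158). With only the 2 groups in the fit, POLR3G, MYBBP1A and BYSL did not pass (limma adjusted p = 0.112, 0.15 and 0.148). With the mean of all probe sets of a gene MYBBP1A and POLR3G were at 0.35 and 0.96 and did not pass (limma adjusted p = 0.38 and 0.263). POLR3G also did not pass after median centring (limma adjusted p = 0.125).

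BYSL, which encodes bystin, a factor of late small-subunit maturation, had the largest difference among the members that rose at LH4. It read 1026, 724 and 831 at LH4, against 558, 600.1 and 604 in LHR+ cells, a log2 difference of 0.54 (SE 0.11, limma adjusted p = 0.00716). DDX21, which works on RNA polymerase I transcripts and on snoRNAs, read 5585, 5427 and 5259 at LH4, against 3989, 3777 and 3708 in LHR+ cells, a difference of 0.50 (limma adjusted p = 0.00211). RRS1 was at 1630.1, 1505 and 1671 at LH4, against 1075, 1171 and 1185 in LHR+ cells, and had the lowest adjusted p of the members at this time (0.49, SE 0.07, limma adjusted p = 0.000629). In all 3 genes the LH4 arrays were above every LHR+ array. RRP12, an export factor of the small subunit, had a larger difference of 0.57 but did not pass (limma adjusted p = 0.219). Its LH4 arrays read 567, 585 and 543 and those of LHR+ cells 456, 447 and 268, so that 1 LHR+ array lay far below the other 2. No member of the small subunit processome passed at LH4. The snoRNP proteins also stayed close to LHR+ cells, with log2 differences of -0.01 for FBL, 0.03 for NOP58, -0.01 for NHP2 and -0.08 for GAR1.

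**Figure D2:**
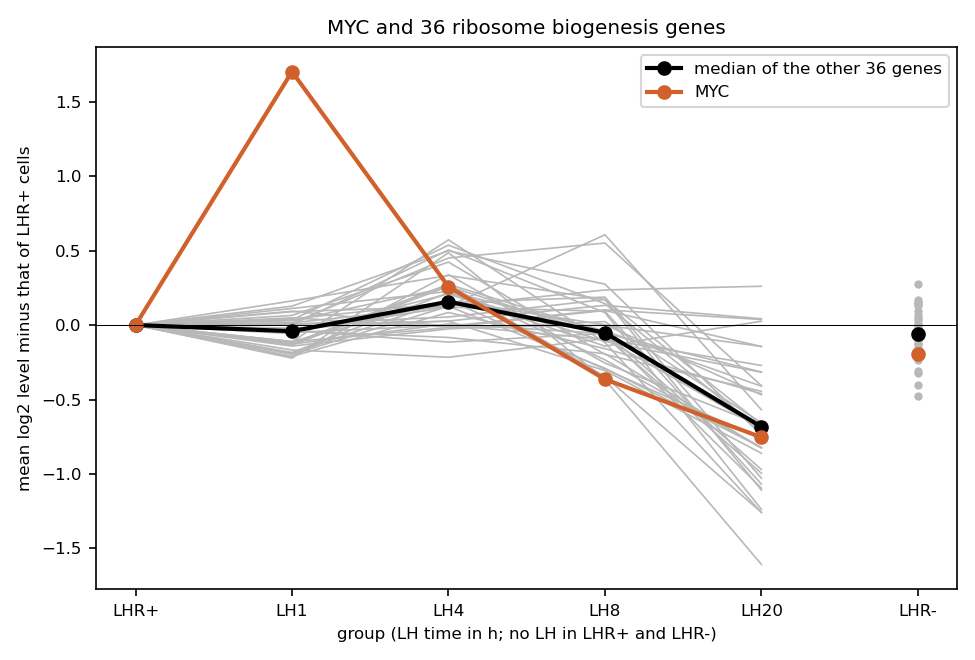
Mean log2(intensity + 1) of each member minus its mean in LHR+ cells, plotted against group (LHR+, LH1, LH4, LH8, LH20), with MYC in orange, the other 36 members in grey and their median in black. MYC peaks at LH1 with 1.70, while most other members lie above 0 at LH4 and below 0 at LH20.

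At LH8 the shares of members that rose or fell were close to those of genes of like brightness, and they are no result about the members. Of the 37, 3 rose (8.11%) and 4 fell (10.8%) relative to LHR+ cells, against 5.19% of all genes higher and 5.73% lower. Among the 9394 genes whose probe sets were at least as bright as that of the dimmest member, 8.35% were higher and 9.26% lower. No member passed the fuller rule, which 1.73% of all genes passed. The median log2 difference was -0.06. POLR1A, the largest subunit of RNA polymerase I, read 708, 678 and 691 at LH8, against 439, 504 and 424 in LHR+ cells, a log2 difference of 0.61 (SE 0.15, limma adjusted p = 0.0234). POLR3G read 610.4, 695 and 528 at LH8, against 444, 411 and 389 in LHR+ cells, a difference of 0.55 (limma adjusted p = 0.0154). With the mean of all probe sets of a gene these calls were lost (0.14 for POLR1A and 0.80 for POLR3G, limma adjusted p = 0.643 and 0.363). Other polymerase subunits were below LHR+ cells. POLR1B, another core subunit of RNA polymerase I, read 1307, 1268 and 1314 at LH8, against 1645, 1619 and 1513 in LHR+ cells (-0.30, limma adjusted p = 0.0380). POLR1C was at -0.26 (limma adjusted p = 0.0754). POLR1B did not pass after median centring, with only the 2 groups or with the mean of all its probe sets (limma adjusted p = 0.104, 0.159 and 0.538). Nor did it pass without LHR+ array 1, LHR+ array 2 or LH8 array 2 (limma adjusted p = 0.130, 0.108 and 0.115). RRS1, above its LHR+ level at LH4, was below it at LH8 with 883, 903 and 871, a difference of -0.37 (limma adjusted p = 0.00581). UTP15, a processome protein that links transcription of the precursor with its processing, fell by 0.35 on the log2 scale (limma adjusted p = 0.0777), and its LH8 arrays read 578, 420.5 and 552, against 644, 637 and 672 in LHR+ cells. Without LH8 array 2 that difference was -0.20 (limma adjusted p = 0.259). The count of members that fell at LH8 ranged between 1 and 5 when single arrays were left out, with 1 or 2 when an LHR+ array or LH8 array 2 was dropped. NOP16 also rose by its brightest probe set (0.24, limma adjusted p = 0.0896), 1 of 4 probe sets that did not move together.

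At LH20 most members were down-regulated. Of 37 members, 30 fell and 1 rose relative to LHR+ cells, so that 81.1% were lower, against 18% of all genes lower and 16% higher. Among the 9394 genes whose probe sets were at least as bright as that of the dimmest member, 29.1% were lower. The fuller rule was passed by 8 members, all lower, and by 7.72% of all genes. Leaving out single arrays gave 27 to 30 members that fell. The median log2 difference was -0.69 over the members and -0.00 over all genes, and the groups did not overlap for 33 members (89.2%) and for 43% of all genes. A lower intensity in bulk RNA can reflect less RNA per cell or fewer cells with that RNA, which cannot be told apart. The arrays were brought to a like scale, so that a change of total RNA per cell would not show. Markers of the line and of other cell types also moved at LH20. Of the 7 markers of the line 5 rose and none fell, and ERBB2 read 6796, 6928 and 7105 at LH20, against 2732, 2797 and 2971 in LHR+ cells. Of the 10 markers of other cell types DCN rose, with 120.002, 175 and 195 at LH20, against 12.4, 17.9 and 20.2 in LHR+ cells, and the other 9 did not pass in limma. Summed over these 10 markers the intensity was 411 to 482 at LH20, against 280 to 326 in LHR+ cells. CD3E and CD34 were near 0, at 14.2 and 5.26 or less on every array. The part of these markers in the result was not tested.

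**Figure D3:**
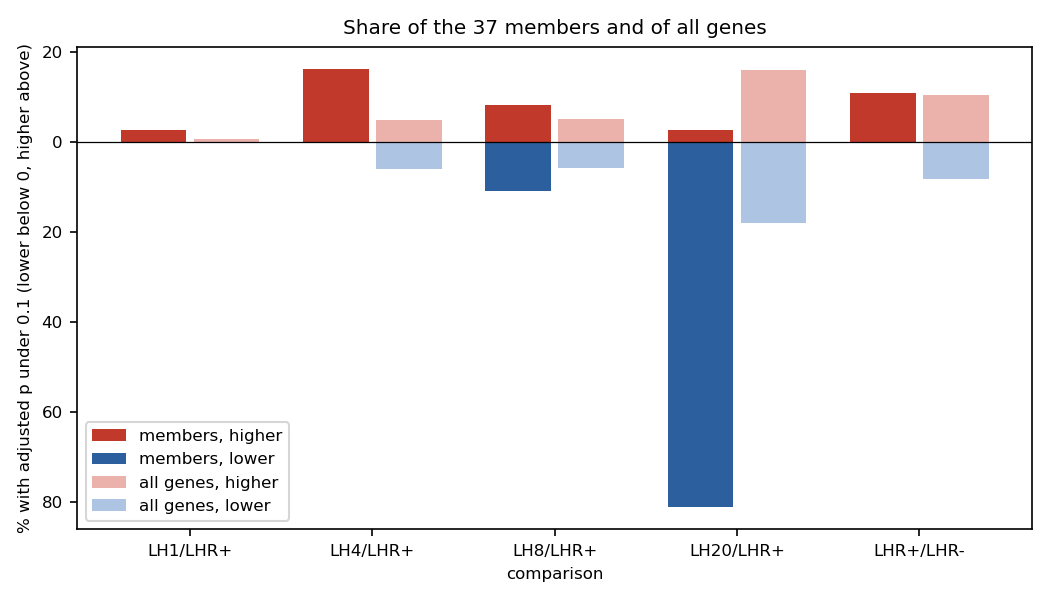
Share (percent) of the 37 members and of all 19775 genes that were higher or lower at an adjusted p under 0.1 (limma), for LH1, LH4, LH8 and LH20 against LHR+ cells and for LHR+ against LHR- cells. At LH20 81.1% of members and 18% of all genes were lower.

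RRS1 had the largest difference of the members at LH20. It read 384, 374 and 365, against 1075, 1171 and 1185 in LHR+ cells, which is 3.05-fold lower (log2 difference -1.61, SE 0.07, limma adjusted p = 6.37e-09). The other members of large-subunit assembly that fell were WDR12, MRTO4, NOP2, GRWD1 and RRP1B, 6 of 8 in all. WDR12 read 666, 667 and 609 at LH20, against 1382, 1355 and 1409.6 in LHR+ cells, and MRTO4 300.0, 270.2 and 399 at LH20, against 603, 666 and 688 in LHR+ cells. Their log2 differences were -1.09 and -1.03. NOP2, a methyltransferase of the large-subunit RNA, averaged 531 ± 81.5 at LH20 and 1034 ± 67.7 in LHR+ cells (SD, n = 3 arrays each), a difference of -0.97 (limma adjusted p = 3.15e-05). GRWD1, a chaperone of a ribosomal protein, and RRP1B were near the threshold (limma adjusted p = 0.0976 and 0.0557). PES1, the partner of WDR12, did not pass. Its LH20 arrays read 975, 535 and 643 and overlapped with 975, 769 and 865 in LHR+ cells.

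All 9 members of the small subunit processome fell at LH20, with log2 differences between -1.26 and -0.32. UTP15 read 295, 246 and 276 at LH20, against 644, 637 and 672 in LHR+ cells, a difference of -1.26 (SE 0.11, limma adjusted p = 1.80e-06). RRP9, a protein of the U3 snoRNP that guides the first cuts of the precursor, averaged 121 ± 18.5 at LH20 and 262 ± 25 in LHR+ cells (SD, n = 3 arrays each), and the helicase gene DDX10 averaged 274 ± 24.4 at LH20 and 574 ± 9.14 in LHR+ cells. These 3 genes passed the fuller rule. UTP4, with 3013 ± 96.9 at LH20 and 3748 ± 61.6 in LHR+ cells, had the smallest difference of the processome (-0.32, limma adjusted p = 0.00418). HEATR1 and WDR43, which belong with UTP4 and UTP15 to the subcomplex that acts on transcription as well, were at -0.46 and -0.47, and NOP14, UTP20 and WDR3 between -0.82 and -0.67.

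Of the late small-subunit factors, 3 of 4 fell at LH20. RRP12 read 168, 170.4 and 138 at LH20, against 456, 447 and 268 in LHR+ cells, a log2 difference of -1.26 (SE 0.25, limma adjusted p = 0.00159), and every LH20 array was below every LHR+ array. BYSL read 365, 348 and 357 at LH20, against 558, 600.1 and 604 in LHR+ cells (-0.72, limma adjusted p = 0.000201). TSR1, a GTPase-like factor of the late precursor particle, was at -0.41 (limma adjusted p = 0.0722). NOB1, the endonuclease that makes the final cut of the small-subunit RNA, averaged 552 ± 56.3 at LH20 and 546 ± 92.8 in LHR+ cells (SD, n = 3 arrays each, limma adjusted p = 0.946), and its arrays overlapped.

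The 5 members grouped with the RNA polymerases, of which MYBBP1A is no subunit, all fell at LH20, by 0.41 to 0.76 on the log2 scale. POLR1A, higher at LH8, read 257, 357 and 312 at LH20, against 439, 504 and 424 in LHR+ cells (-0.57, limma adjusted p = 0.0100). POLR3G, higher at LH4 and LH8, read 282, 354 and 305 at LH20, against 444, 411 and 389 in LHR+ cells (-0.41, limma adjusted p = 0.0249, and 0.101 without LH20 array 1). With the mean of all its probe sets the difference of POLR3G was 0.27 (limma adjusted p = 0.733). POLR1B, POLR1C and MYBBP1A were at -0.76, -0.67 and -0.74. Every LH20 array of these 5 genes was below the LHR+ arrays.

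Genes of the multifunctional nucleolar proteins and of the snoRNPs were divided at LH20. DDX21 read 1542, 1697 and 1626, against 3989, 3777 and 3708 in LHR+ cells, a log2 difference of -1.24 (SE 0.09, limma adjusted p = 2.57e-07), and LYAR averaged 421 ± 30.9 at LH20 and 759 ± 174 in LHR+ cells (SD, n = 3 arrays each). NCL and NPM1, which encode the abundant nucleolar proteins nucleolin and nucleophosmin, differed by -0.14 and 0.04 and did not pass (limma adjusted p = 0.293 and 0.781). Within each class of snoRNP 1 gene fell and 1 did not pass. NOP58, a scaffold of the box C/D class, averaged 1955 ± 366 at LH20 and 3514 ± 242 in LHR+ cells (-0.86), whereas FBL, the methyltransferase of the same particles, averaged 4381 ± 229 at LH20 and 4266 ± 135 in LHR+ cells (0.04, limma adjusted p = 0.859). GAR1 of the pseudouridine-forming box H/ACA class was at -0.83 (limma adjusted p = 4.72e-05) and its partner NHP2 at -0.14 (limma adjusted p = 0.207). NOLC1, a chaperone of both classes, fell by 0.66, and the importin gene IPO4 by 1.00 on the log2 scale.

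**Figure D4:**
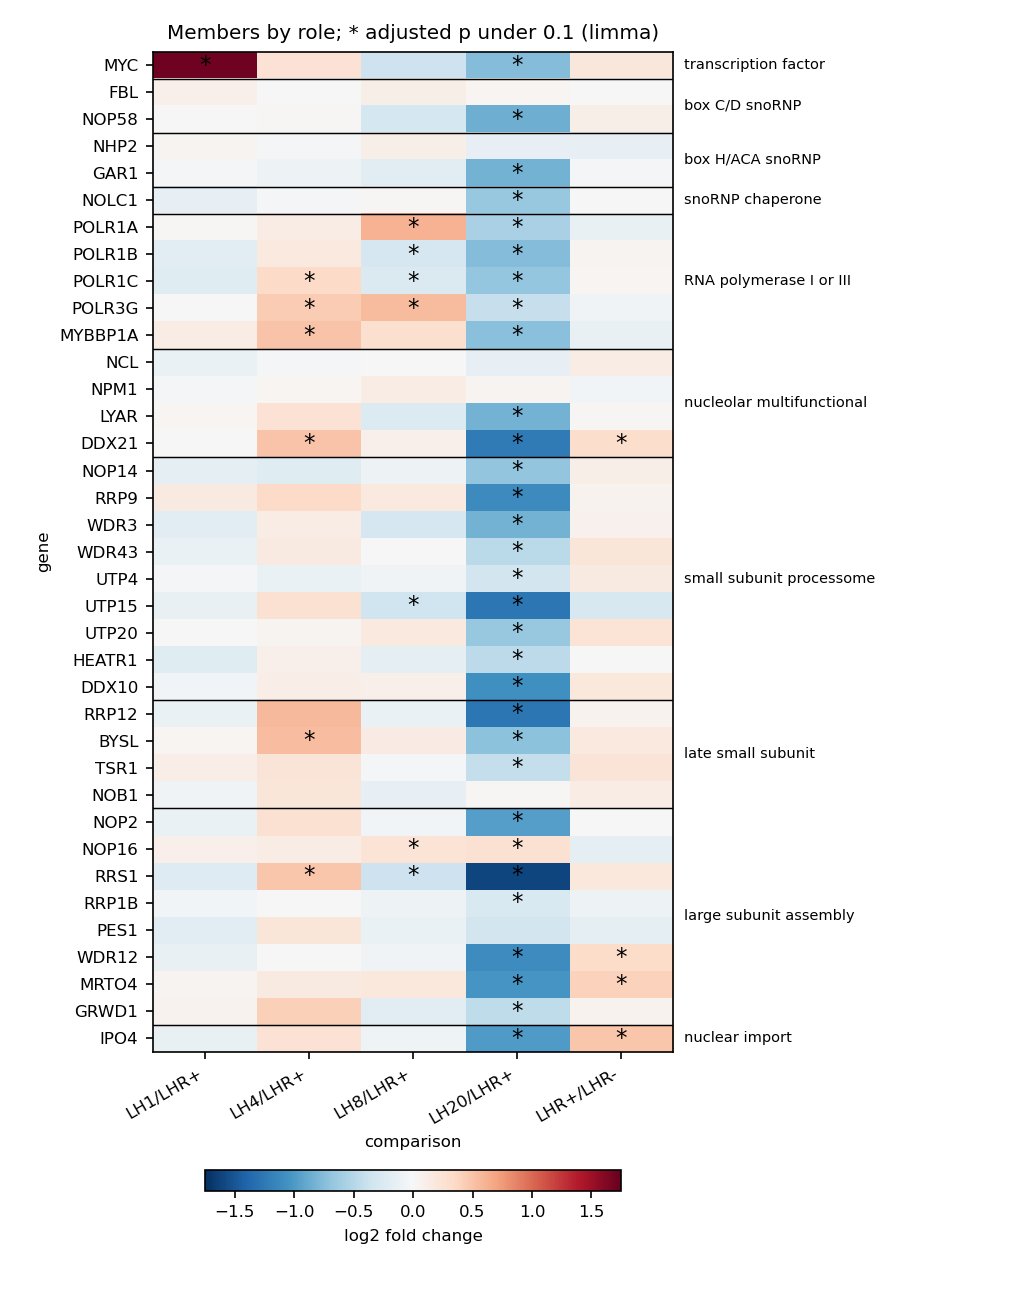
Log2 fold change of the 37 members (rows, grouped by role) in LH1, LH4, LH8 and LH20 against LHR+ cells and in LHR+ against LHR- cells (columns), colour from blue (lower) to red (higher), with a star for an adjusted p under 0.1 in limma. The LH20 column holds 30 blue starred cells and the LH1 column a single starred cell, that of MYC.

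The promoters of the members were searched for the E-box that MYC and MAX bind. RefSeq promoters of GRCh38.p14, 250 bases before to 50 after the annotated start, were at hand for 30 of the 37 members. CACGTG, which reads the same on both strands, stood in 12 of these 30 (40%), in 7.43% of all 27305 promoters and in 10.6% of the 7859 promoters of genes at least as bright as the dimmest member. Of members lower at LH20, 10 of 23 (43.5%) held it, and of the others 2 of 7 (28.6%). The members without a promoter at hand were MYC, NOP58, NOLC1, POLR3G, RRP1B, RRP12 and RRS1, all lower at LH20. The others include NOP16, for which no direction is given below. No conclusion is drawn from this split. A match is a run of letters in this window and not evidence of binding, and the absence of one says only that these letters are not there. The stretches from 120 bases before to 30 after the start, 5′ to 3′, are shown for 5 members that fell at LH20 and hold the motif, in capitals. MRTO4 is at chr1:19251685-19251834 on the plus strand, RRP9 at chr3:51941875-51942024 on the minus strand, IPO4 at chr14:24188787-24188936 on the minus strand, UTP20 at chr12:101279985-101280134 on the plus strand and NOP14 at chr4:2963377-2963526 on the minus strand. DDX21, at chr10:68956050-68956199 on the plus strand, and UTP15, at chr5:73565623-73565772 on the plus strand, had some of the largest falls and no such motif, and are shown beside them.
MRTO4: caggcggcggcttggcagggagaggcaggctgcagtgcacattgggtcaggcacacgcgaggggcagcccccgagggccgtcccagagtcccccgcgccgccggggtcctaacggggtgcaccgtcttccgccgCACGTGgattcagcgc
RRP9: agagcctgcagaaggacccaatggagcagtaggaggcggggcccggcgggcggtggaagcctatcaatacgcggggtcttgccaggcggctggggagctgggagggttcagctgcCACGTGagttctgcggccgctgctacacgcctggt
IPO4: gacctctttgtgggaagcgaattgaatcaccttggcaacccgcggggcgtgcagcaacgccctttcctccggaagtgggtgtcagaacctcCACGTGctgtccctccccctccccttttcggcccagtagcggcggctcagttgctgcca
UTP20: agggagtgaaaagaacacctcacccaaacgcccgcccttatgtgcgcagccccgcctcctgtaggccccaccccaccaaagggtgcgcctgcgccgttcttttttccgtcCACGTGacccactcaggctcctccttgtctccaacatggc
NOP14: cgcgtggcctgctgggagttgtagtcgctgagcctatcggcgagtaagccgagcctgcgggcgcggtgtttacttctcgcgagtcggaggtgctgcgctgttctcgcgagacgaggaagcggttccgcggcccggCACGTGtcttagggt
DDX21: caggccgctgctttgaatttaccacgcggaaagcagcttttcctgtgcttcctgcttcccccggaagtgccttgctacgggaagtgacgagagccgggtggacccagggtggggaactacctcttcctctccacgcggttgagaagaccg
UTP15: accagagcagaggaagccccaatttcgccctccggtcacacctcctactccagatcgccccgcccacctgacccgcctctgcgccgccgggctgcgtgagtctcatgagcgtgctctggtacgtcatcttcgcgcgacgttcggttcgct
The first base of the motif lies 5 bases before the start in RRP9, 10 before it in UTP20 and 29 before it in IPO4, and, counting the start as base 1, at base 15 in MRTO4 and base 16 in NOP14.

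Setting each LH time against the one before it showed when the members moved. At LH4 against LH1, 11 members rose and MYC alone fell, against 4.4% of all genes higher and 4.21% lower, and MYC was the 1 member to pass the fuller rule, as did 1.79% of all genes. At LH8 against LH4, POLR1A alone rose and 10 members fell, against 3.97% of all genes higher and 4.08% lower. Among those 10, RRS1 was 0.85 lower at LH8 than at LH4 on the log2 scale (limma adjusted p = 2.16e-05), UTP15 0.62 lower and POLR1C 0.59 lower. At LH20 against LH8, 28 members fell and none rose, against 13.5% of all genes lower and 12.1% higher, and 9 members passed the fuller rule, against 4.59% of all genes. Over the 6 groups the mean level was highest at LH4 for 21 members and at LH8 for 7, and it was lowest at LH20 for 33 of the 37.

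Set against LHR- cells, which never received the receptor or LH, LH20 cells were also low in most members. Of the members, 29 were lower and none higher, against 18.9% of all genes lower and 18.3% higher, with a median log2 difference of -0.60. The fuller rule was passed by 4 members, UTP15 (-1.53), RRS1 (-1.43), RRP12 (-1.20) and RRP9 (-1.05), and by 10.3% of all genes. MYC was at -0.56 (limma adjusted p = 0.00598).

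NOP16, a large-subunit factor, was the 1 member that rose at LH20 by its brightest probe set, but its 4 probe sets did not move together. Probe set 213833_x_at read 2626, 2726 and 2945 at LH20, against 2220.5, 2477 and 2229 in LHR+ cells, and probe set 209327_s_at read 2201, 2140.2 and 2329 at LH20, against 1628, 1741 and 1683 in LHR+ cells. Probe set 203023_at read 391, 294 and 308 at LH20, against 1249.5, 1208 and 1386 in LHR+ cells, and probe set 214011_s_at 274, 259 and 246 at LH20, against 975, 997 and 955 in LHR+ cells. The log2 differences were 0.26 and 0.40 for the first pair and -1.96 and -1.91 for the second (limma adjusted p = 0.0415, 0.00996, 1.37e-07 and 7.87e-08, adjusted over all 41091 probe sets). Over these probe sets 12.6% were higher and 15.3% lower at LH20. The suffix of 213833_x_at marks probes that may match other transcripts, and which transcripts each probe set reads was not tested, so no direction is given for NOP16.

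**Figure D5:**
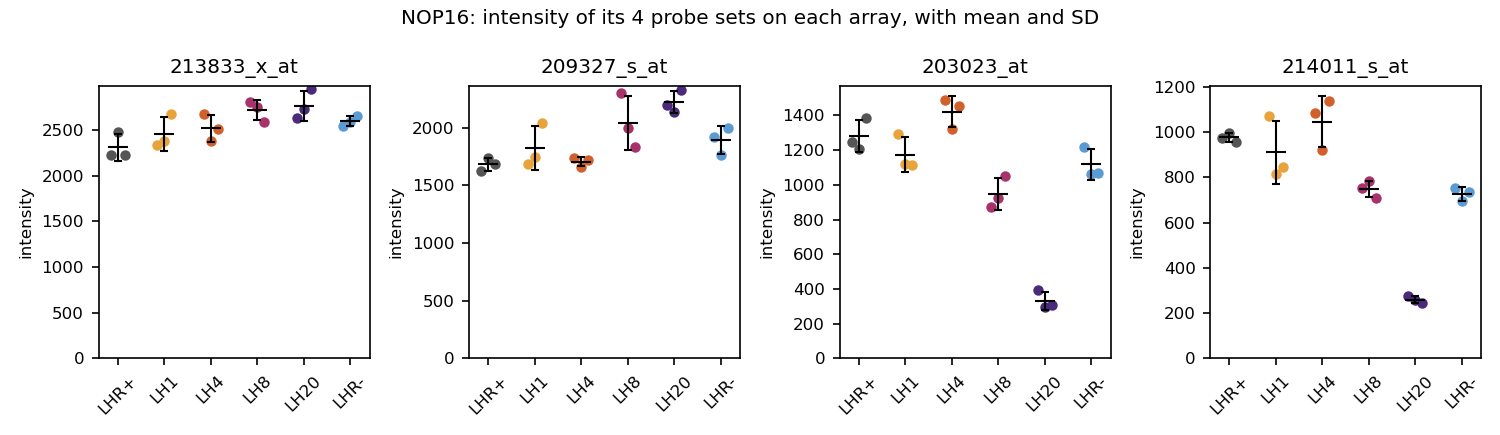
Intensity of the 4 probe sets annotated to NOP16 alone on each array (points, 3 per group, with mean and SD) in LHR+, LH1, LH4, LH8, LH20 and LHR- cells, 1 panel per probe set with its own linear axis. At LH20 the left pair lies above its LHR+ arrays and the right pair lies at 246 to 391, far below them.

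Further probe sets of the members mostly lay below LHR+ cells at LH20 as well. Beside the brightest probe sets, 23 further probe sets of 14 members had a mean log2 intensity at least that of an intensity of 100. At LH20, 21 of these were below LHR+ cells, 16 of them at an adjusted p under 0.1, and 1, the second probe set of NOP16, was above at that threshold. DDX21's second probe set was at -1.15, POLR1A's at -0.73 and -1.22, TSR1's at -0.69 and -0.66 and LYAR's at -1.04. WDR12's were at -0.48 and 0.26, and those of NPM1 at -0.10 and -0.17 (limma adjusted p = 0.730 and 0.136 over the probe sets). Signs matched that of the gene's brightest probe set for 18 of the 23 at LH20. In the other comparisons fewer matched, 16 at LH4, 14 at LH8, 5 at LH1 and 11 in LHR+ against LHR- cells.

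Ribosome biogenesis genes outside the list were also mostly down-regulated at LH20. Their lists, like that of the members, were chosen with earlier results of these data known. In 4 further lists (RNA polymerase I machinery, small subunit, large subunit and snoRNP factors) 104 genes were tested, and 68 of them (65.4%) fell at LH20 and 3 rose, against 18% of all genes lower and 16% higher, with a median log2 difference of -0.42. By list, 31 of 38 small-subunit factors, 26 of 44 large-subunit factors, 6 of 13 genes of the polymerase machinery and 5 of 9 snoRNP factors fell. NIP7 (-1.60) and PAK1IP1 (-1.47), both of large-subunit assembly, LTV1 (-1.37) and PDCD11 (-1.27) of the small subunit, and RUVBL1 (-1.38), an ATPase that helps to assemble snoRNPs, passed the fuller rule. At LH4, 10 of the 104 rose (9.62%) and 2 fell, against 4.9% of all genes higher and 5.97% lower. At LH8 1 rose and 12 fell (11.5%), against 5.19% of all genes higher and 5.73% lower. Among genes at least as bright as the dimmest member, 7.64% were higher and 9.68% lower at LH4, and 8.35% higher and 9.26% lower at LH8. The shares that rose at LH4 and fell at LH8 were close to these. At LH1 none passed in limma, where 4 had an unadjusted p under 0.05. NOP53, a large-subunit factor, passed the fuller rule at LH8, but its mean log2 intensity was 4.02 at LH8 and 5.19 in LHR+ cells, near the level of markers of absent cell types, and no fold is given. In LHR+ against LHR- cells 16 were higher (15.4%) and 3 lower (2.88%), against 10.4% of all genes higher and 8.22% lower. Among genes at least as bright as the dimmest member, 14.8% were higher and 11.6% lower. The share that was higher is thus close to that of bright genes and is no result about these lists.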

How the data were processed

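RNA from the 18 cultures was amplified as cDNA, labelled and hybridized by the authors, and the deposited values are probe set intensities on a linear scale, 1 column per array. Per the labels they were summarized with PLIER, while the study's methods name RMA, and version, build and background settings are not given in the sources used here. The table holds 54675 probe sets, of which 41097 list 1 gene symbol, 1801 several and 11777 none. Of the first, 41043 matched RefSeq genes of GRCh38.p14 by Entrez ID. Intensities were transformed as log2(value + 1) with no further scaling and no filter on low values. Array medians lay between 46.9 and 57.9, and centring arrays on them moved some of the smaller counts, as given below. Precision is limited by 3 arrays per group. Each of 19775 genes was represented by its brightest probe set of 1 symbol.

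All genes and arrays entered 1 linear model with a mean per group (lmFit and eBayes of limma 3.58.1, R 4.3.3), which was tested on simulated data. A member passed at a Benjamini-Hochberg adjusted p under 0.1 over all genes. The study's fuller rule was counted beside it, with limma in place of the study's ANOVA and Mann-Whitney tests. An exact Mann-Whitney test of 3 arrays against 3 cannot give a two-sided p below 0.1. Members and further lists were chosen with earlier results of these data known. Per-array values are given for MYC, for NOP16 and for members that were among the 3 largest rises or falls that passed in any comparison, in the comparisons where these are described. PES1, ERBB2, DCN, other members named with a mean or difference alone, and the second probe sets named were chosen after their values had been seen. Replicate numbers did not pair the arrays. Deviations of same-numbered arrays correlated between -0.0218 and 0.0545, so no block was used. The alternatives were an added value of 16, median centring, quantile normalization, brighter genes only, the mean of all probe sets and a replicate block. Further alternatives were only the groups compared, a variance trend with intensity, a one-way ANOVA of the 2 groups compared and leaving out each array. The study names ANOVA and a Mann-Whitney test, and the latter was not run. Plots were made in Python 3.11.15 (matplotlib 3.10.9).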

Additional observations from a re-analysis of the deposited data

Results flagged for a closer look

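Levels differed between neighbouring LH times, by limma's test of the difference itself and by at least 2-fold, in 10 cases among the members. Cells without LH were not taken at each time, so LH and time in culture cannot be told apart here either. MYC was lower at LH4 than at LH1 by a log2 difference of -1.44 (adjusted p = 1.97e-05), on every LH4 array. The other 9 cases were all lower at LH20 than at LH8. DDX21 differed by -1.32 and RRP9 by -1.28 (limma adjusted p = 5.16e-07 and 9.11e-06). RRS1 was at -1.24 and MRTO4 at -1.22, both of large-subunit assembly. POLR1A, which at LH8 had been above LHR+ cells, was at -1.18 (limma adjusted p = 0.000101). For DDX10 the difference was -1.16, for RRP12 -1.14, for WDR12 -1.04 and for MYBBP1A -1.01. In RRP12 the LH8 arrays spread widely, at 363, 480.1 and 245.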

How the results depend on the processing

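The number of members that fell at LH20 was 30 and stayed between 26 and 30 under every alternative tried, and MYC at LH1 was the 1 member to rise there in all of them. The smaller counts moved. Percentages in brackets give the share of all genes tested that passed in the same direction under that alternative. Members higher in LHR+ against LHR- cells numbered 4, but 1 after median centring (7.58%) and 2 with only the 2 groups compared (5.44%). They numbered 2 with the ANOVA (5.24%), and 2 to 4 when single arrays were left out. Members lower in that comparison numbered 0, but 1 after quantile normalization (8.71%), 1 among brighter genes (16.1%) and 1 with the ANOVA (4.62%). The count was 0 to 1 when single arrays were left out, and in each case the member was UTP15. With the replicate number as a block that count was also 1, and the block changed no other count of members by over 1.5 times and, beside UTP15, 1 call of a named member, NOP16 at LH8 (adjusted p = 0.118 in limma). The 6 members higher at LH4 became 11 among brighter genes (11.3%), where fewer genes were tested. They became 3 with only the 2 groups (3.27%) or with the ANOVA (3.76%). The 3 higher at LH8 became 0 with the mean of all probe sets (2.99%). They became 1 with only the 2 groups (2.06%) or with the ANOVA (2.69%). The 4 lower at LH8 became 1 after centring (2.99%), 7 among brighter genes (14.5%) and 2 with the mean of all probe sets (3.48%). They became 0 with only the 2 groups (1.92%), 7 with a variance trend (6.88%) and 2 with the ANOVA (2.71%). When single arrays were left out, that count was 1 to 5. The 1 higher at LH20 became 0 after centring (13.2%), 0 with the mean of all probe sets (12%) and 0 with only the 2 groups (14.8%). Among the differences of named members that passed, directions turned only where all probe sets of a gene were averaged. This was so for WDR12 in LHR+ against LHR- cells (-0.0102), POLR3G at LH20 (0.27), NOP16 at LH8 (-0.0781) and NOP16 at LH20 (-0.80, limma adjusted p = 3.96e-06). Some differences that did not pass also changed sign when single arrays were left out, such as RRP12 at LH8 (-0.37 to 0.14) and MRTO4 at LH1 (-0.07 to 0.14). Where not stated, the cause was not tested. After centring, 5 members were above and 32 below LHR+ cells at LH1, in place of 16 and 21, while the median of all genes was then -0.10 in place of -0.01, so signs of small differences at LH1 depend on the scaling.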

Other observations

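MYC's partners and other known MYC targets held both genes that rose and genes that fell at LH20. Of 10 partners and antagonists that had a probe set of their own, 3 rose and 1 fell at LH20, against 16% of all genes higher and 18% lower, and none passed at LH1 in limma (0 with an unadjusted p under 0.05). MYCN, a relative of MYC, passed as lower in LHR+ than in LHR- cells, but its mean log2 intensity was 2.98 in LHR+ cells and 5.15 in LHR- cells, near the level of markers of absent cell types, and no fold is given. Of 25 MYC targets outside ribosome biogenesis, none passed at LH1 or LH4 in limma (unadjusted p under 0.05 for 0 at LH1 and 2 at LH4). At LH8 2 of them rose (8%), against 5.19% of all genes and 8.35% of genes at least as bright as the dimmest member. At LH20 12 fell (48%) and 3 rose (12%), against 18% of all genes lower and 16% higher, with a median log2 difference of -0.29. Among genes at least as bright as the dimmest member, 29.1% were lower and 24.1% higher at LH20. ODC1, which encodes the rate-limiting enzyme of polyamine synthesis, differed by -1.66 (limma adjusted p = 3.37e-07) and SRM, the next enzyme of that route, by -1.56 (limma adjusted p = 6.04e-08) at LH20.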
